A study of Mus musculus with 24 samples.

Results

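The 9 genes described here encode the pore-forming subunits of the AMPA receptor (Gria1, Gria2, Gria3 and Gria4) and of the kainate receptor (Grik1, Grik2, Grik3, Grik4 and Grik5). They were taken as every probe set whose single annotation symbol was one of these genes or an older alias, which gave 19 of 45037 probe sets and 9 of 18161 named genes. Of the 19 probe sets, 10 belonged to AMPA receptor genes and 9 to kainate receptor genes. One of the 3 Grik2 probe sets, 1445234_at, carries the clone name C130030K03Rik, which the gene table lists among the older names of Grik2.

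RNA was measured in male mice of 2 lines bred in opposite directions for contextual fear: a mouse is returned to the chamber in which it was shocked, and its freezing, the time spent motionless, is scored. The 24 Affymetrix arrays form 4 groups of 6: amygdala of the high freezing line (line 25, arrays 7 to 12), amygdala of the low freezing line (line 24, arrays 1 to 6), hippocampus of the high freezing line (arrays 7 to 12) and hippocampus of the low freezing line (arrays 1 to 6). The labels give no strain, age or treatment, and do not say whether RNA was pooled, whether mice were conditioned before sampling, or whether equal array numbers in the 2 tissues come from 1 animal. Each line is a single breeding line, so p-values measure the spread between arrays of these lines.

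AMPA receptors are tetramers that carry most fast excitatory transmission in the brain, and their makeup sets conductance, calcium entry and trafficking. The edited form of the Gria2 subunit makes a receptor nearly impermeable to calcium, while receptors rich in Gria1 are prominent in hippocampal long-term potentiation and Gria4 is prominent in several kinds of interneuron. Kainate receptors modulate transmission on both sides of the synapse: Grik1, Grik2 and Grik3 can form channels alone, whereas Grik4 and Grik5 are high-affinity subunits that need one of those partners, and Grik4 is known for its place at hippocampal mossy fibre synapses.

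All values below are log2(signal + 16), where signal is the linear intensity the authors deposited for a probe set. Differences are amygdala minus hippocampus or high line minus low line, each with its standard error, and folds are on the same scale, which understates the change of dim probe sets. A probe set is called where limma gave an adjusted p under 0.05 after Benjamini-Hochberg adjustment over all 45037 probe sets. Levels of different probe sets are not comparable, so each gene is followed across the groups and never ranked against another gene. Where a gene had several probe sets, the one with the highest mean over the 24 arrays stands for it.

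Every array had been scaled to the same trimmed mean of 150, and array medians lay between 43.3 and 55.7 linear units. The dissections carried their tissues' markers: all 10 hippocampus markers were called lower in amygdala in both lines, and 6 of 9 measured amygdala markers were called higher. Beside the amygdala markers, all 6 measured striatal markers were called higher in amygdala in both lines, with summed linear signals of 3872 to 6749 in high line amygdala and 4160 to 7451 in low line amygdala, against 847 to 1009 in high line hippocampus and 843 to 1053 in low line hippocampus. Of the 10 interneuron markers, 6 were called higher and 2 lower in amygdala in each line. They summed to 12084 to 13437 in high line amygdala and 11713 to 12664 in low line amygdala, against 8510 to 9904 in high line hippocampus and 8858 to 9871 in low line hippocampus. The dimmest marker of each list by its mean over all arrays was Drd2 (6.33) and Lhx6 (6.75) on the log2(signal + 16) scale, whose floor is 4. Other lists moved with tissue too: 4 of 5 measured oligodendrocyte markers and 4 of 7 astrocyte markers were called lower in amygdala in each line (1 astrocyte marker was called higher in the high line), and 4 of 5 meninges and fibroblast markers in the high line and 3 of 5 in the low line. Oligodendrocyte markers summed to 10592 to 12531 in high line amygdala and 10040 to 12084 in low line amygdala, against 12395 to 17397 in high line hippocampus and 13509 to 16406 in low line hippocampus. Astrocyte markers summed to 11257 to 12650 and 11082 to 11820 in high and low line amygdala, against 13419 to 14711 and 13540 to 14706 in high and low line hippocampus. Meninges and fibroblast markers summed to 410 to 617 and 440 to 779 in high and low line amygdala, against 1432 to 1854 and 1068 to 1377 in high and low line hippocampus. Oligodendrocyte precursor markers had 2 of 6 called higher in amygdala in each line. Microglia markers had 1 of 6 called higher in the high line and 2 of 6 in the low line. Of the 4 endothelial and the 4 choroid plexus markers, none was called in either line. Choroid plexus sums varied widely between arrays of a group. They ran from 606 to 12895 in high line amygdala and 1529 to 13880.5 in low line amygdala. In hippocampus they ran from 1939 to 14804 in the high line and 1426 to 16315 in the low line. Beside these counts, 22.2% of the brightest probe sets of all named genes were called in the high line and 17.2% in the low line, in either direction. The part of any of these cell types in the tissue differences below was not tested. In bulk tissue, fewer cells of a type and less RNA per cell cannot be told apart. The 18S ribosomal RNA 5' control read 324 to 1525 linear units in high line amygdala and 295 to 1148 in low line amygdala, against 3600 to 5800 in high line hippocampus and 5859 to 7093 in low line hippocampus. Tissue and RNA preparation therefore cannot be told apart for the tissue comparisons, nor line and preparation in hippocampus. The ratio of the actin 5' probe set to its 3' probe set, which falls as RNA degrades, was 0.301 and 0.339 on amygdala arrays 7 and 8 (high line), against 0.497 to 0.630 on the other 22 arrays. Hippocampus array 7 (high line) had the highest median, 55.7 linear units.

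**Figure D1:**
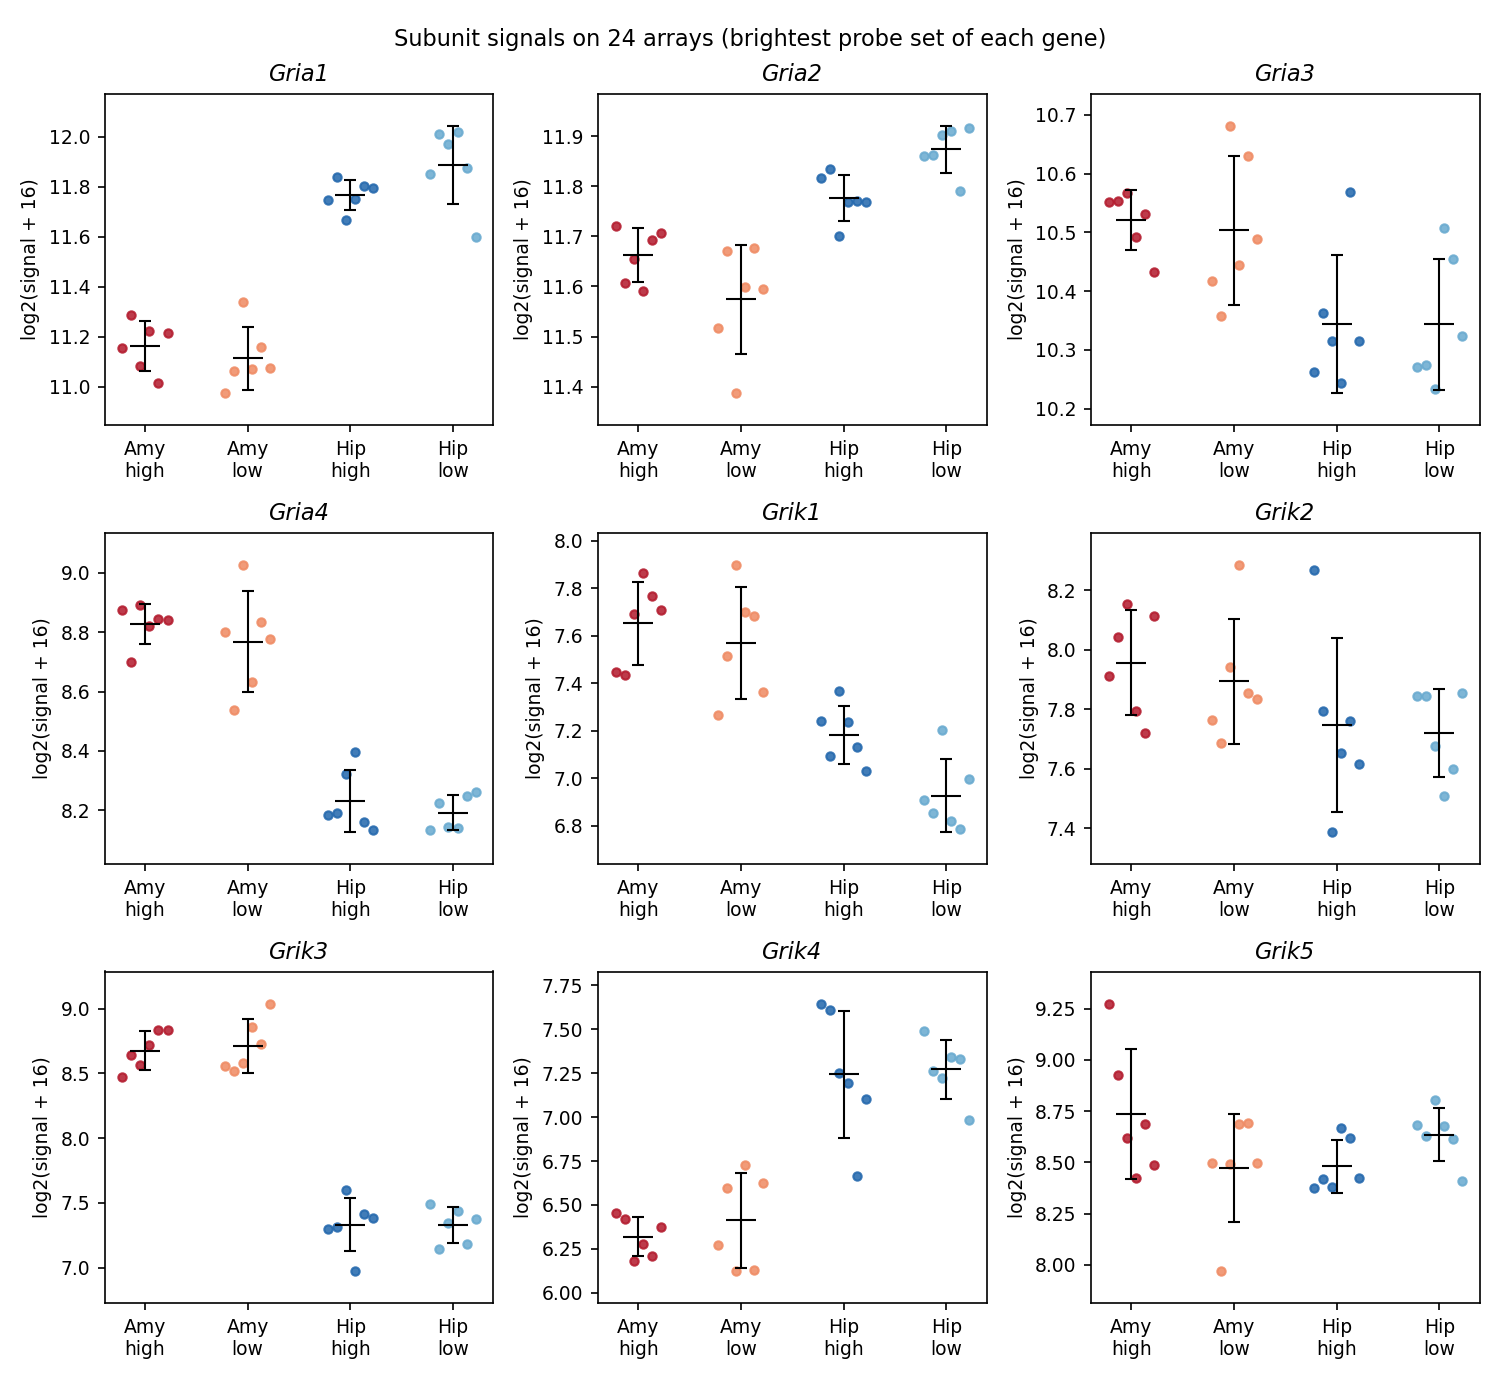
Log2(signal + 16) of the brightest probe set of each of the 9 subunit genes on all 24 arrays, by group of tissue and line, with the mean and SD of 6 arrays. Gria1, Gria4 and Grik3 separate the tissues completely, and the lines overlap within each tissue for every gene shown.

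The tissue comparison asks how the RNA of each receptor subunit differs between the 2 regions. Receptor protein was not measured. Of the 19 probe sets, 11 were called in the high line, where 19.1% of all probe sets were called, with 5 higher (9.05% of all probe sets) and 6 lower (10.0%) in amygdala. In the low line 10 were called, 4 higher (6.98% of all) and 6 lower (6.47%), against 13.5% of all probe sets in either direction. With the lines averaged, 12 were called, 6 higher (12.9% of all) and 6 lower (12.9%), against 25.8% of all probe sets in either direction. Without amygdala arrays 7 and 8 the high line gave 10 called subunit probe sets and the lines averaged 12. The shares of all probe sets include dim ones. Without the dimmest 40% of probe sets, the share called was 32.4% in the high line, 25.4% in the low line and 42.5% averaged. Of the 19 subunit probe sets, only Grik3 1427709_at lies in that dimmest part. The tissues did not overlap for 7 of the 19 probe sets in the high line (10.6% of all probe sets), for 9 in the low line (8.86%) and for 5 over both lines (4.91%). The median difference of the 19 probe sets was 0.19 in the high line, where that of all probe sets was -0.04, and 0.05 in the low line, where that of all probe sets was 0.01. By their brightest probe sets and with the lines averaged, Gria3, Gria4, Grik1 and Grik3 were higher in amygdala, and Gria1, Gria2 and Grik4 were lower. Of the 9 brightest probe sets 7 were called with the lines averaged, 5 in the high line and 6 in the low line. Among the brightest probe sets of all named genes the shares were 30.1% averaged, 22.2% in the high line and 17.2% in the low line. Grik2 and Grik5 did not pass.

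**Figure D2:**
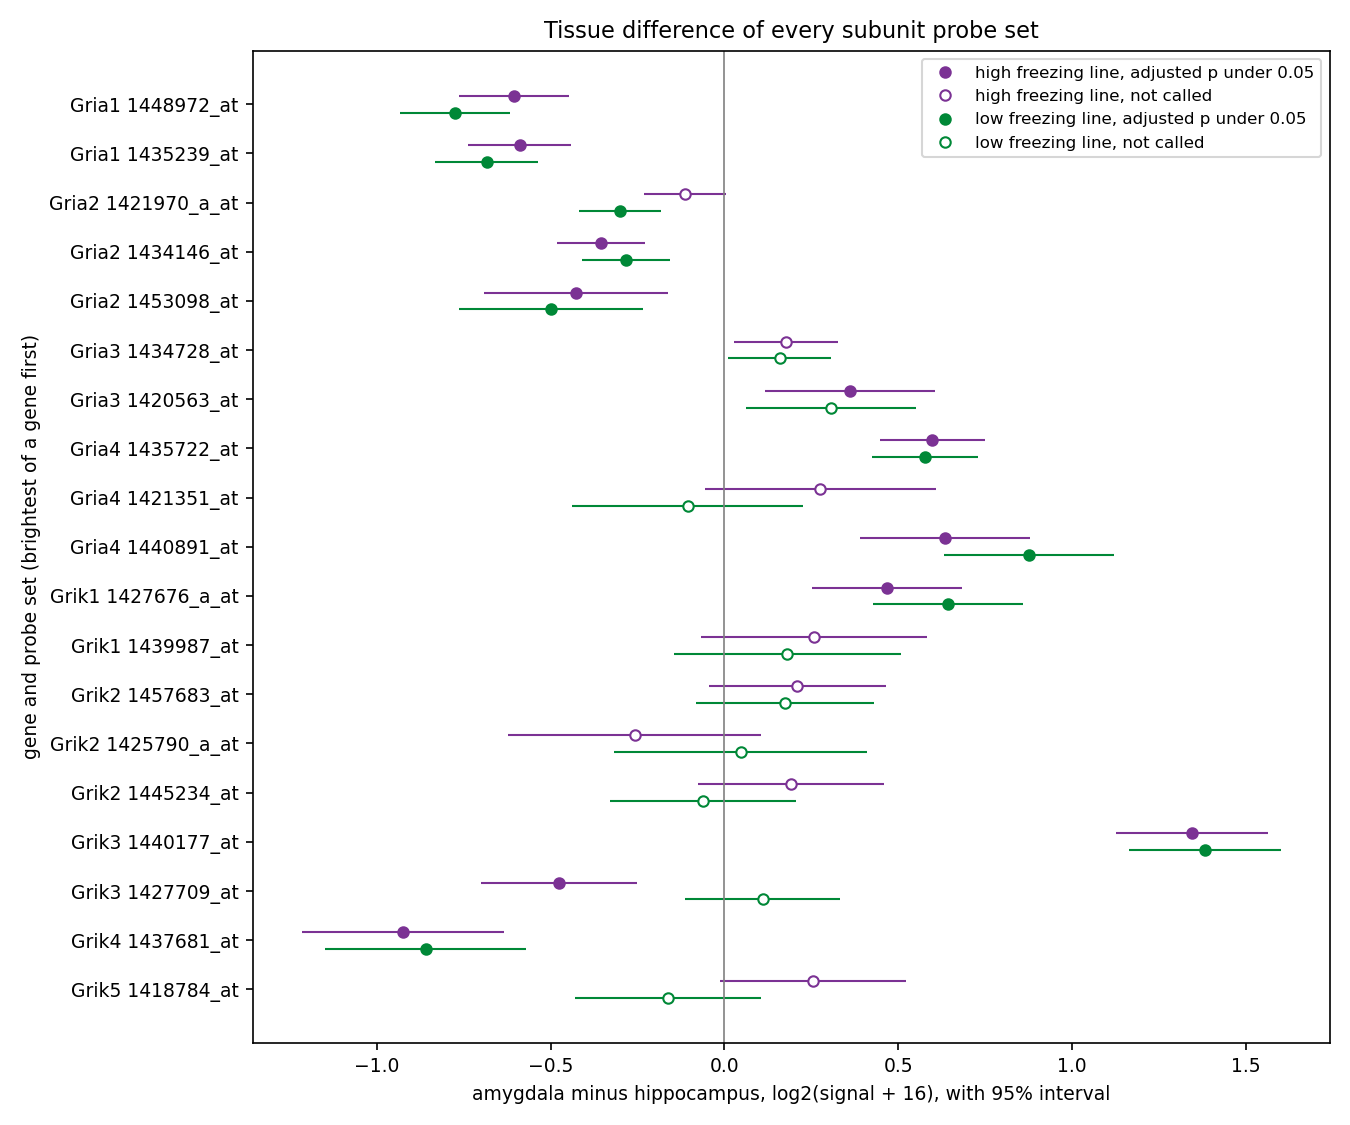
Amygdala minus hippocampus difference on the log2(signal + 16) scale for each of the 19 probe sets, in the high line and in the low line, with 95% intervals. Grik3 1440177_at lies farthest to the amygdala side at 1.34 and 1.38, and Grik4 farthest to the hippocampus side at -0.92 and -0.86.

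The subunits with called differences in opposite directions include an AMPA and a kainate receptor gene on each side, and the promoters of 4 of them are shown here so that the genes can be seen beside their values: Grik3 and Gria4, higher in amygdala, and Grik4 and Gria2, lower in amygdala. Each line gives the 250 bases before the RefSeq gene start on the gene's own strand, in build GRCm38.p6, with capitals marking each GC box (GGGCGG, or CCGCCC on the other strand). The windows are chr4:125490446-125490695 on the plus strand for Grik3, chr9:4796235-4796484 on the minus strand for Gria4, chr9:42944372-42944621 on the minus strand for Grik4 and chr3:80802836-80803085 on the minus strand for Gria2.
Grik3: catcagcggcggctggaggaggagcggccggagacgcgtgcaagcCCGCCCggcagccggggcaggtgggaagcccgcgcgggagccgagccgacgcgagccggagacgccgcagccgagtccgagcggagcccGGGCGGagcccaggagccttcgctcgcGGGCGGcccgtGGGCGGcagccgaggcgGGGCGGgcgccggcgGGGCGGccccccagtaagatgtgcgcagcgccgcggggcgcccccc
Gria4: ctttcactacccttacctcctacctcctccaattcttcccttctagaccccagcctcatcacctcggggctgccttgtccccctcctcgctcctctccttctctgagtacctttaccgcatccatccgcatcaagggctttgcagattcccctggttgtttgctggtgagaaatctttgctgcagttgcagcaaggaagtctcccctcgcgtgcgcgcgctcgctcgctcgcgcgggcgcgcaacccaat
Grik4: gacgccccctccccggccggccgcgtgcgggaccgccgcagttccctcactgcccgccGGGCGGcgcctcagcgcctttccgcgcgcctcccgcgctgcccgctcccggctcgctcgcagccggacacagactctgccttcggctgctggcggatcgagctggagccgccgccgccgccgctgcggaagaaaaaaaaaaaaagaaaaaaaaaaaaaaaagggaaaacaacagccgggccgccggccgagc
Gria2: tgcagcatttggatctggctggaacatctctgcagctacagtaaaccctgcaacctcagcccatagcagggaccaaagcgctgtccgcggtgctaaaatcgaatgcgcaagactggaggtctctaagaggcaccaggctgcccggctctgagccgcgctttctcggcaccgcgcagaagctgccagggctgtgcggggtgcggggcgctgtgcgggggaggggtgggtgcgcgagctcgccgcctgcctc
The Grik3 window held 6 GC boxes and was 82% G and C, the Grik4 window held 1 and was 69.6%, and the windows of Gria4 (58.8%) and Gria2 (64.8%) held none. Among 32851 mouse promoter windows of the same length, 32.7% held a GC box and the middle quartiles of G and C content ran from 45.2% to 61.2%. The TATA box (TATAAA, 12.4% of all windows) and the cyclic AMP response element (TGACGTCA, 1.55%), each searched on both strands, occurred in none of the 6 subunit windows in the table, which also held Grik2 and Grik5. The presence or absence of these letters is a description of the windows alone. The genes lie on chromosomes 11 (Gria1), 3 (Gria2), X (Gria3), 9 (Gria4 and Grik4), 16 (Grik1), 10 (Grik2), 4 (Grik3) and 7 (Grik5).

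Gria1, the subunit whose insertion at the synapse is a step of hippocampal long-term potentiation, was lower in amygdala in both lines. Its brightest probe set, 1448972_at, read 11.01 to 11.29 in high line amygdala (median 11.18) and 10.97 to 11.34 in low line amygdala (median 11.07). The same probe set read 11.67 to 11.84 in high line hippocampus (median 11.77) and 11.60 to 12.02 in low line hippocampus (median 11.92). No amygdala array reached the lowest hippocampus array, whereas the lines overlapped in each tissue. The difference was -0.61 ± 0.08 in the high line (SE, n = 6 arrays each, 1.52-fold, limma adjusted p = 2.53e-06) and -0.77 ± 0.08 in the low line (1.71-fold, limma adjusted p = 5.76e-08). The second Gria1 probe set, 1435239_at, gave -0.59 and -0.68, both called and also without overlap.

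Gria2, which sets the calcium permeability of AMPA receptors, was lower in amygdala by a smaller margin. Probe set 1421970_a_at read 11.59 to 11.72 in high line amygdala (median 11.67), against 11.70 to 11.84 in high line hippocampus (median 11.77). In the low line it read 11.39 to 11.68 in amygdala (median 11.60), against 11.79 to 11.92 in hippocampus (median 11.88). The tissues did not overlap in the low line, where the difference of -0.30 ± 0.06 was called (SE, n = 6 arrays each, limma adjusted p = 5.49e-04). They overlapped in the high line, where -0.11 ± 0.06 was not called (limma adjusted p = 0.175). The other 2 Gria2 probe sets were called in both lines: 1434146_at gave -0.35 in the high line and -0.28 in the low line without overlap, and 1453098_at gave -0.43 and -0.50 with overlap. Averaging the 3 probe sets of the gene gave -0.30 in the high line, which was called (limma adjusted p = 6.93e-05).

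Gria3, the X-linked AMPA receptor subunit, had the smallest called difference among the brightest probe sets with the lines averaged. It read 10.43 to 10.57 in high line amygdala (median 10.54) and 10.36 to 10.68 in low line amygdala (median 10.47). Hippocampus arrays read 10.24 to 10.57 in the high line (median 10.31) and 10.23 to 10.51 in the low line (median 10.30), so all 4 groups overlapped. Neither line alone passed for probe set 1434728_at, at 0.18 ± 0.07 in the high line (limma adjusted p = 0.0889) and 0.16 ± 0.07 in the low line (limma adjusted p = 0.168). With the lines averaged the difference was 0.17 ± 0.05 (SE, n = 12 arrays each, 1.12-fold, limma adjusted p = 0.0158). Without amygdala arrays 7 and 8 and hippocampus array 7, an alternative chosen after seeing the data, it was 0.15 and was not called (limma adjusted p = 0.0603). The second probe set, 1420563_at, gave 0.36 in the high line, which was called (limma adjusted p = 0.0335), and 0.31 in the low line, which was not (limma adjusted p = 0.0944). On that probe set amygdala arrays 7 and 8 read 9.13 and 9.17, below the 9.52 to 9.67 of the other high line amygdala arrays.

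Gria4, a subunit with fast kinetics, was higher in amygdala in both lines. Probe set 1435722_at read 8.70 to 8.89 in high line amygdala (median 8.84) and 8.54 to 9.03 in low line amygdala (median 8.79), against 8.13 to 8.40 in high line hippocampus (median 8.19) and 8.13 to 8.26 in low line hippocampus (median 8.18). The tissues did not overlap, and the 2 lines of a tissue did. The difference was 0.60 ± 0.07 in the high line (SE, n = 6 arrays each, 1.51-fold, limma adjusted p = 1.72e-06) and 0.58 ± 0.07 in the low line (1.49-fold, limma adjusted p = 2.92e-06). Probe set 1440891_at gave 0.64 and 0.88, both called. The dimmest Gria4 probe set, 1421351_at, gave 0.28 and -0.11, neither called, with overlapping tissues.

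Set against each other on the same array, Gria1 minus Gria4 was 2.17 to 2.59 in high line amygdala and 2.17 to 2.52 in low line amygdala, against 3.35 to 3.66 in high line hippocampus and 3.34 to 3.88 in low line hippocampus. The scaling of an array cancels approximately in this difference, because 16 is added before the log. No amygdala array overlapped a hippocampus array. The pairs followed in this way were chosen because their tissue differences ran in opposite directions, so a wider gap between tissues follows from that choice. Gria2 minus Gria3 was 1.05 to 1.28 in high line amygdala and 0.71 to 1.31 in low line amygdala, against 1.20 to 1.55 in high line hippocampus and 1.34 to 1.67 in low line hippocampus, so the tissues overlapped. The size of such a difference depends on the probes and only its shift between groups is read here.

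Among the kainate receptor subunits that can form channels alone, Grik3 had the largest tissue difference of all 19 probe sets. Its bright probe set, 1440177_at, read 8.47 to 8.84 in high line amygdala (median 8.68) and 8.52 to 9.04 in low line amygdala (median 8.65). It read 6.97 to 7.60 in high line hippocampus (median 7.35) and 7.14 to 7.49 in low line hippocampus (median 7.36). The lowest amygdala array stood well above the highest hippocampus array. The difference was 1.34 ± 0.11 in the high line (SE, n = 6 arrays each, 2.54-fold, limma adjusted p = 1.44e-09) and 1.38 ± 0.11 in the low line (2.61-fold, limma adjusted p = 8.04e-10). The second Grik3 probe set, 1427709_at, was among the dimmest on the array, at the 6.64th percentile of mean signal, and ran the other way in the high line (-0.48, limma adjusted p = 0.00261), while the low line gave 0.11 (limma adjusted p = 0.612). Its group medians lay between 3.02 and 11.2 linear units, against 147 to 394 for 1440177_at. Averaging the 2 probe sets gave 0.43 in the high line (limma adjusted p = 2.50e-04) and 0.75 in the low line (limma adjusted p = 1.62e-07).

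Grik1, a kainate subunit known from interneurons, was higher in amygdala. Probe set 1427676_a_at read 7.43 to 7.86 in high line amygdala (median 7.70), against 7.03 to 7.37 in high line hippocampus (median 7.18). In the low line it read 7.26 to 7.90 in amygdala (median 7.60), against 6.79 to 7.20 in hippocampus (median 6.88). Within each line the tissues did not overlap. The difference was 0.47 ± 0.10 in the high line (SE, n = 6 arrays each, limma adjusted p = 0.00223) and 0.64 ± 0.10 in the low line (limma adjusted p = 8.41e-05). Amygdala arrays 7 and 8 read 7.45 and 7.43, below the 7.69 to 7.86 of the other high line amygdala arrays, and the high line difference without them was 0.57 (limma adjusted p = 8.65e-04). The dimmer probe set 1439987_at gave 0.26 and 0.18, neither called. Averaging both probe sets gave 0.36 in the high line and 0.41 in the low line, both called (low line limma adjusted p = 0.00421).

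Grik2, the most studied kainate receptor subunit of hippocampal principal cells, passed on none of its 3 probe sets in either line. Probe set 1457683_at read 7.72 to 8.16 in high line amygdala (median 7.98) and 7.69 to 8.29 in low line amygdala (median 7.84), against 7.39 to 8.27 in high line hippocampus (median 7.71) and 7.51 to 7.85 in low line hippocampus (median 7.76). All groups overlapped. The differences were 0.21 ± 0.12 in the high line (95% interval -0.05 to 0.47, limma adjusted p = 0.255) and 0.17 ± 0.12 in the low line (-0.08 to 0.43, limma adjusted p = 0.444). With the lines averaged it was 0.19 (limma adjusted p = 0.114). Without amygdala arrays 7 and 8 it was still 0.19 and not called (limma adjusted p = 0.181). Without hippocampus array 7 as well, an alternative chosen after seeing the data, it was 0.24 and called (limma adjusted p = 0.0424). The intervals of the 3 probe sets ran from -0.62 to 0.47 over both lines.

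Of the high-affinity subunits, Grik4 was lower in amygdala. Its only probe set, 1437681_at, read 6.18 to 6.45 in high line amygdala (median 6.33), against 6.67 to 7.65 in high line hippocampus (median 7.22). In the low line it read 6.12 to 6.73 in amygdala (median 6.43), against 6.98 to 7.49 in hippocampus (median 7.30). The tissues did not overlap within a line; across lines, the highest low line amygdala array passed the lowest high line hippocampus array. The difference was -0.92 ± 0.14 in the high line (SE, n = 6 arrays each, 1.90-fold, limma adjusted p = 3.10e-05) and -0.86 ± 0.14 in the low line (1.81-fold, limma adjusted p = 8.72e-05).

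Grik5, the other high-affinity subunit, did not pass in either line. It read 8.42 to 9.27 in high line amygdala (median 8.65) and 7.97 to 8.69 in low line amygdala (median 8.50), against 8.38 to 8.67 in high line hippocampus (median 8.42) and 8.41 to 8.80 in low line hippocampus (median 8.65). All groups overlapped. The differences were 0.26 ± 0.13 in the high line (limma adjusted p = 0.179) and -0.16 ± 0.13 in the low line (limma adjusted p = 0.508). The highest readings, 9.27 and 8.92, came from amygdala arrays 7 and 8, and without them the high line difference was 0.07 (limma adjusted p = 0.738).

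On the same array, Grik4 minus Grik3 was -2.62 to -2.02 in high line amygdala and -2.59 to -1.92 in low line amygdala, against -0.75 to 0.35 in high line hippocampus and -0.39 to 0.15 in low line hippocampus. No amygdala array overlapped a hippocampus array in this difference between the high-affinity subunit and its possible partner. This pair too was chosen for its opposite tissue differences, and the bright Grik3 probe set alone already separated the tissues.

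**Figure D3:**
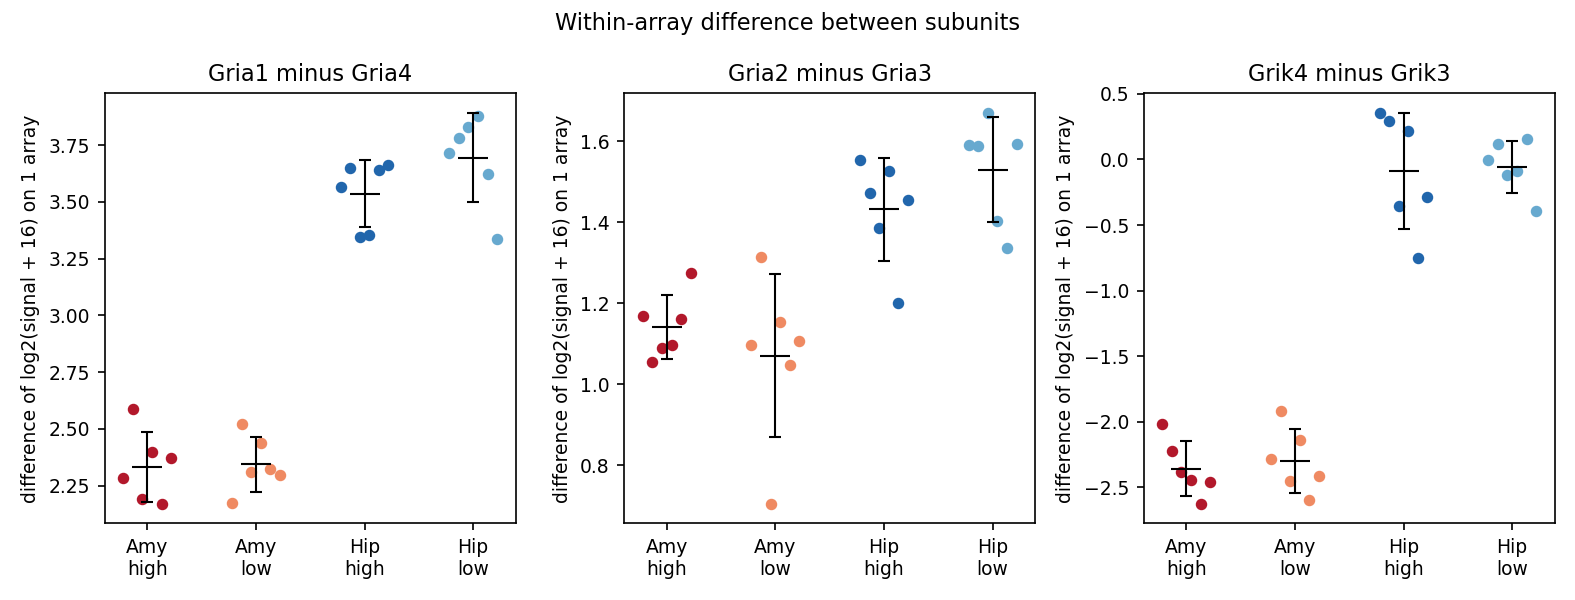
Differences between pairs of subunits on the same array, on the log2(signal + 16) scale, for each of the 24 arrays with the group mean and SD. Gria1 minus Gria4 and Grik4 minus Grik3 do not overlap between the tissues, and Gria2 minus Gria3 does. The pairs were chosen for opposite tissue differences, which widens the gap.

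The order of the group means followed tissue for the 5 genes called in both lines by their brightest probe sets. Gria4, Grik1 and Grik3 had both amygdala means above both hippocampus means, and Gria1 and Grik4 both below. The lines overlapped within each tissue in all 5 genes. These genes were picked by their tissue calls, and the order does not set them apart. Gria2 also had both amygdala means below, and Gria3 and Grik2 both above, while Grik5 departed from this order. The tissues were separate over both lines in Gria1, Gria4 and Grik3, while in Grik1 and Grik4 low line amygdala overlapped high line hippocampus. Over the 24 arrays, the 36 pairs of subunit genes had Pearson correlations from -0.93 (Gria1 with Grik3) to 0.90 (Gria4 with Grik3), with a median of 0.04. The arrays share the tissue difference, and after subtraction of the 4 group means the range was -0.50 to 0.35 with a median of 0.03. These are descriptions over arrays that share tissue, line and scaling.

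The line comparison asks whether the RNA of receptor subunits differs between mice bred for high and for low freezing. No subunit probe set was called in amygdala, where limma called 0.00222% of all probe sets (1 of 45037), and none in hippocampus, where it called 0.0222% (10 of 45037). At an unadjusted p under 0.05 there was 1 of 19 in amygdala (6.54% of all probe sets) and 2 of 19 in hippocampus (8.97%). The lowest adjusted p values were 0.684 in amygdala and 0.449 in hippocampus. The 95% intervals of the 9 brightest probe sets lay between -0.35 and 0.60 in amygdala and between -0.36 and 0.45 in hippocampus. Over all 19 probe sets they lay between -0.67 and 0.60 in amygdala and between -0.54 and 0.70 in hippocampus. A p that misses the threshold does not show that the lines are alike within these intervals. Some tissue markers in hippocampus also leaned with line, though none was called. All 10 hippocampus markers read lower in the high line (median -0.21, against 0.02 for all probe sets). They summed to 8910 to 9984 in the high line and 10636 to 11638 in the low line. All 5 meninges and fibroblast markers read higher in the high line (median 0.23). The part of tissue content in the line values was not tested.

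**Figure D4:**
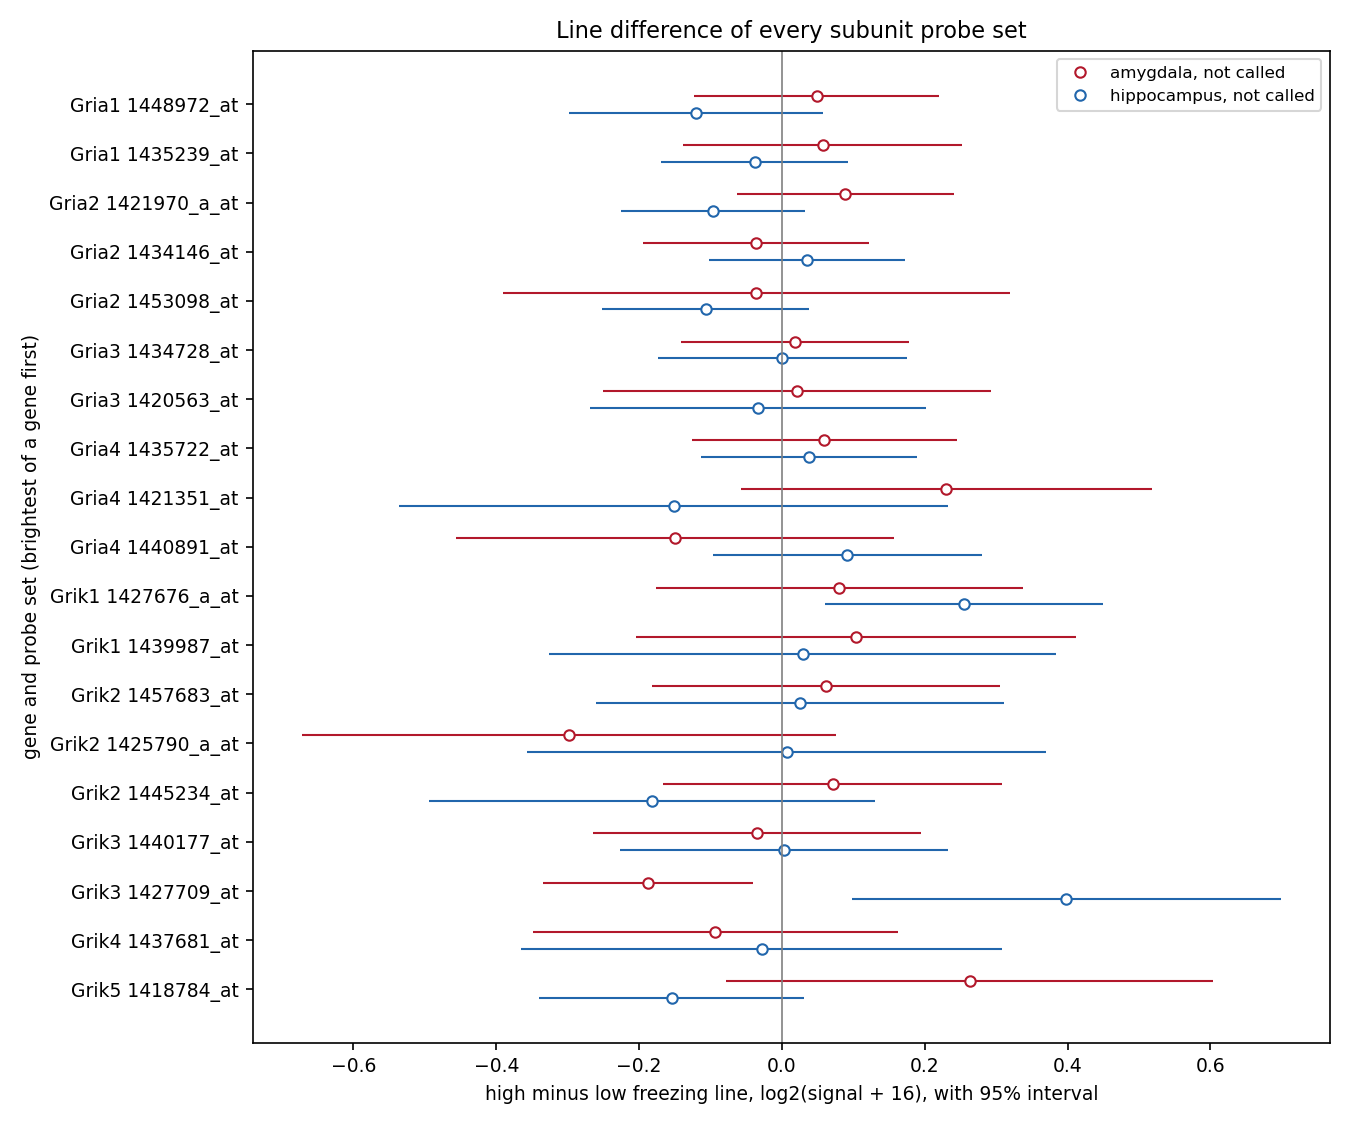
High line minus low line difference on the log2(signal + 16) scale for each of the 19 probe sets, in amygdala and in hippocampus, with 95% intervals. No probe set passed the adjusted threshold of 0.05 in either tissue.

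For the AMPA receptor genes the brightest probe sets differed between the lines by 0.02 (Gria3) to 0.09 (Gria2) in amygdala. In hippocampus the differences were -0.12 ± 0.08 for Gria1 (95% interval -0.30 to 0.06), -0.10 ± 0.06 for Gria2 (-0.23 to 0.03), 0.00 ± 0.08 for Gria3 (-0.17 to 0.17) and 0.04 ± 0.07 for Gria4 (-0.11 to 0.19). For the kainate receptor genes the amygdala differences ran from -0.09 ± 0.12 (Grik4, -0.35 to 0.16) to 0.26 ± 0.16 (Grik5, -0.08 to 0.60). The Grik5 value, which also sets the upper bound of 0.60, was 0.08 without amygdala arrays 7 and 8, and 0.16 without either array 7 of the high line or array 2 of the low line. Grik5 in hippocampus gave -0.15 ± 0.09 (-0.34 to 0.03). Grik1 had the largest hippocampal difference of the brightest probe sets, 0.26 ± 0.09 (SE, n = 6 arrays each, 95% interval 0.06 to 0.45), with high line arrays at 7.03 to 7.37 and low line arrays at 6.79 to 7.20. The groups overlapped, and the difference did not pass (limma adjusted p = 0.449). Averaging both Grik1 probe sets gave 0.14.

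The other 2 results under the unadjusted threshold, 1 in each tissue, came from the dim Grik3 probe set 1427709_at. In amygdala it gave -0.19, with high line arrays at 4.13 to 4.30 and low line arrays at 4.30 to 4.53 and no overlap, as for 0.402% of all probe sets (limma adjusted p = 0.684). In hippocampus it gave 0.40, with high line arrays at 4.23 to 5.18 and low line arrays at 4.19 to 4.43 (limma adjusted p = 0.449). The bright Grik3 probe set gave -0.03 in amygdala and 0.00 in hippocampus.

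Whether the line difference itself differed between tissues was tested as an interaction. No subunit probe set was called, and 0% of all probe sets were (0 of 45037). At an unadjusted p under 0.05 there were 3 of 19, against 7.08% of all probe sets. These were the dim Grik3 probe set 1427709_at (-0.59, limma adjusted p = 0.463), Grik5 (0.42, limma adjusted p = 0.677) and Gria2 1421970_a_at (0.19, limma adjusted p = 0.677). Without amygdala arrays 7 and 8 the Grik5 interaction was 0.24 (limma adjusted p = 0.869).

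The RNA of proteins that assemble, traffic and edit these receptors was followed in 4 lists of partners. Of 16 auxiliary subunits of AMPA receptors, 4 were called higher and 6 lower in amygdala in the high line, and 5 higher and 5 lower in the low line. The share called among the brightest probe sets of all named genes, either direction, was 22.2% in the high line and 17.2% in the low line. Their median differences were -0.11 and 0.03. Shisa6, which keeps AMPA receptors from desensitizing, was lower in amygdala by the most, at -1.89 ± 0.11 in each line. Cacng8, a transmembrane regulator of AMPA receptors known in hippocampus, gave -1.41 ± 0.18 in the high line and -1.19 ± 0.18 in the low line. Its family members differed in direction. Cacng5 was higher in amygdala, at 0.73 in the high line and 0.65 in the low line, as was Cacng4, at 0.46 and 0.79. Cacng2 gave -0.23 and -0.33, called only with the lines averaged (-0.28, limma adjusted p = 0.0431), and Cacng7 gave 0.01 and 0.04, not called; these 2 were named after their values were seen. Among the cornichon proteins, which slow AMPA receptor deactivation, Cnih3 was higher in amygdala (0.67 in the high line and 0.65 in the low line) and Cnih2 lower (-0.59 and -0.84).

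Each of the 4 kainate receptor partners was called in both lines, 2 in each direction, beside 22.2% of all named genes in the high line and 17.2% in the low line. Neto1, an auxiliary subunit of hippocampal kainate receptors, gave -0.36 in the high line and -0.32 in the low line, while its paralogue Neto2 gave 0.73 and 0.69. C1ql2, a secreted organizer of kainate receptors at mossy fibre synapses, was lower in amygdala, at -1.99 ± 0.25 in the high line and -2.88 ± 0.25 in the low line, and C1ql3 was higher at 0.57 and 0.47. C1ql2 also stands among the hippocampus markers above, so it is not independent of the tissue check.

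Of the 15 trafficking and anchoring partners with a named probe set, 7 were called higher and 5 lower in the high line, and 5 higher and 5 lower in the low line, beside the same 22.2% and 17.2% of all named genes. Arc, an immediate early gene product that drives AMPA receptor endocytosis, gave -1.54 ± 0.36 and -1.67 ± 0.36. Nptx1, a pentraxin that clusters AMPA receptors, gave -1.17 ± 0.06 and -1.23 ± 0.06, and the synaptic adhesion protein Lrrtm1 gave -0.98 and -1.05. Higher in amygdala in both lines were Grip2, a scaffold that binds Gria2 and Gria3, at 1.03 in the high line and 0.60 in the low line, and the kinase anchor Akap5, at 0.65 and 0.76. Of the 3 RNA editing enzymes, only Adar was called, higher at 0.30 and 0.56. Adarb1, the enzyme that edits the Gria2 calcium site, gave -0.40 and -0.18, neither called, and is named outside the naming rule. No partner of any of the 4 lists was called between the lines in either tissue or in the interaction; the lowest adjusted p was 0.0754, for C1ql2 in hippocampus (-0.94).

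**Figure D5:**
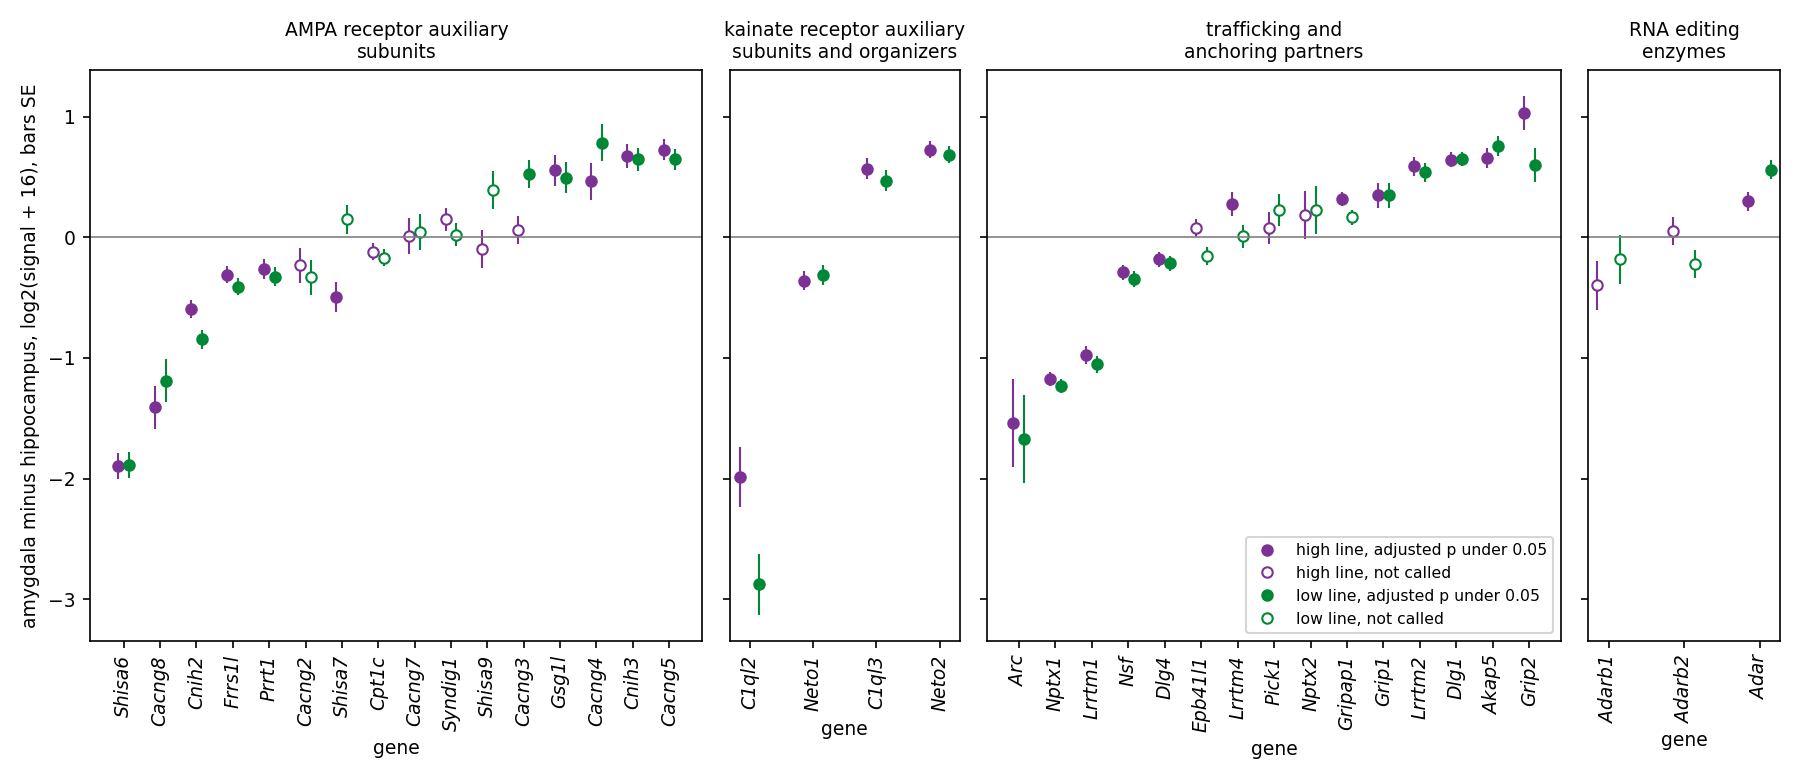
Amygdala minus hippocampus difference on the log2(signal + 16) scale for the receptor partners, by list, in the high line and in the low line. Members of each list fall on both sides of 0, with C1ql2, Shisa6 and Arc farthest to the hippocampus side.

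Genes whose signal over the 24 arrays was most like that of a subunit were sought among 10611 genes brighter than the median probe set, by Pearson correlation, as a description. Gria1 was followed most closely by Nptx1 (0.96), Mturn and Gnaq, and Gria2 by Rbfox1 (0.91), Olfm1 and Nrn1. The nearest to Gria4 was Dnm3 (0.96), to Grik3 Fnbp1l (0.97), to Grik4 Atp2b1 (0.92) and to Gria3 Dmtf1 (0.86). The weakest likeness was that of Grik2 with Hdac7 (0.72). These values include the tissue difference that the arrays share. After subtraction of the group means, only Grik1 with Nap1l5 (0.95 before, 0.80 after) and Grik5 with Slc35a3 (0.85 before and 0.85 after) kept the same first gene among the 9 subunits. Among high line amygdala arrays, arrays 7 and 8, with the low actin ratios, gave the highest Grik5 and the lowest Grik1 readings. The likeness without them was not computed.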

How the data were processed

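Signals are the linear intensities the authors deposited, 1 per probe set and array; the method that summarized the probes is not stated in the labels. From the 45101 probe sets, 64 controls were left out. Of the rest, 34945 had 1 gene symbol, 932 several and 9160 none in the platform annotation. Of those with 1 symbol, 34741 were matched to the gene table through the Entrez identifier. Values were taken as log2(signal + 16) and tested with limma 3.58.1 in R 4.3.3: tissue and interaction contrasts in a fit of 4 group means over 24 arrays, lines within the 12 arrays of each tissue, with Benjamini-Hochberg adjustment over 45037 probe sets and a threshold of 0.05. The fit was tested on simulated data. The subunits, the gene lists and the naming rule were chosen with earlier results of these data known. The rule names the 9 subunits by their brightest probe set, up to 4 called members of largest difference per partner list and comparison, and the genes of highest correlation with each subunit. Cacng2, Cacng7 and Adarb1 were named outside this rule. Promoter windows are RefSeq's. Alternatives covered the pseudocount, scaling, low signals, the fit, probe set averaging, the replicate number and each array left out.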

Additional observations from a re-analysis of the deposited data

Results flagged for a closer look

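Dixon's test was applied to each of 76 sets of 6 arrays (19 probe sets in 4 groups), comparing the gap to the nearest array with the whole range, and 5 sets passed its 95% critical value; chance alone gives about 1 set in 20. Gria1 1435239_at on low line amygdala array 2 was lowest at 10.42, against 10.51 for the nearest array (ratio 0.71). Gria2 1453098_at on low line hippocampus array 4 was lowest at 10.37, against 10.49 (ratio 0.695). Gria3 1434728_at on high line hippocampus array 11 was highest at 10.57, against 10.36 (ratio 0.631). Gria4 1435722_at on high line amygdala array 8 was lowest at 8.70, against 8.82 (ratio 0.64). Grik5 1418784_at on low line amygdala array 2 was lowest at 7.97, against 8.49 (ratio 0.723). Low line amygdala array 2 accounts for 2 of the 5.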

How the results depend on the processing

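No call of a subunit gene changed direction under the alternatives run. The number of subunit probe sets called between tissues was within 1.5 times the main count under every alternative; leaving out each array in turn gave 9 to 11 in the high line, 10 to 11 in the low line and 12 to 13 averaged, and the lines and the interaction gave 0 throughout. Gria1, Gria4, Grik1, Grik3 and Grik4 were called in both lines under every alternative. Averaging the probe sets of a gene lowered Grik3 to 0.43 in the high line, 0.75 in the low line and 0.59 averaged. It lowered Grik1 to 0.36 in the high line and 0.41 in the low line, and Gria4 to 0.50 and 0.45. Gria3 in the high line was also called without the dimmest 40% of probe sets (adjusted p = 0.0476), with an intensity trend (adjusted p = 0.0348), without high line hippocampus array 11 (0.22, adjusted p = 0.0304) and with its probe sets averaged (0.27, adjusted p = 0.00106). Averaging also called Gria3 in the low line (0.23, adjusted p = 0.00465). Grik2 averaged over lines was called without high line hippocampus array 7 (0.24, adjusted p = 0.0196). The cause was not tested. Centring arrays on their medians moved the share of positive calls among all probe sets in the high line from 47.5% to 60.4%. Over all probe sets, the calls between lines numbered 0 to 57 in hippocampus (0 with a pseudocount of 1, 57 with an intensity trend) and 0 to 6 in amygdala (6 in the fit of all 24 arrays), with no subunit among them. Deviations of same-numbered arrays of the 2 tissues correlated at -0.06 to 0.13, over 0.1 in 2 of 12. Among differently numbered arrays of the same line, 4 of 60 were over 0.1. Weak correlation between 2 tissues cannot show whether equal numbers come from 1 animal, and the labels do not say. With the replicate block, 10 subunit probe sets were called in the high line, 10 in the low line, 12 averaged and 0 in the interaction. The number of arrays, 6 a group, limits the precision of every difference, and Grik3 1427709_at lies near the floor of the scale.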

Other observations

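Probe sets of the same subunit did not always move together from array to array. After subtraction of the 4 group means over 24 arrays, Gria2 1421970_a_at and 1453098_at had a Pearson correlation of -0.64, and the Gria3 probe sets 1434728_at and 1420563_at one of -0.61, against 0.31 for the Gria1 pair and 0.27 for the brighter Gria4 pair. On amygdala arrays 7 and 8, which had the low actin 5' to 3' ratios, Gria1 1435239_at read 10.83 and 10.79, above the 10.35 to 10.56 of the other high line amygdala arrays, and Gria4 1440891_at read 7.75 and 8.02, below their 8.11 to 8.65. The part of RNA quality in these readings was not tested.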
